A study of Mus musculus with 9 samples.

Results

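The genes described here were 9 members of the mouse Serpina clade that the liver uses to make secreted protease inhibitors and a hormone carrier: Serpina1a, Serpina1b, Serpina1c, Serpina1d, Serpina1e, Serpina3k, Serpina3m, Serpina3n and Serpina6. They were chosen by symbol and matched to the Ensembl identifiers of the deposited table, which lists 55335 genes. All 9 were found, and all 9 passed the filter on low values that left 6755 genes for testing. Liver RNA came from 9 male mice of the strain label B6D2F2, aged 20 weeks, chow-fed and fasted for 4 h, with 3 mice in each of 3 groups that differed in how the mice were conceived. The NC group was conceived and carried naturally, the IVF group came from eggs fertilized in vitro and transferred fresh at the 2-cell stage, and the FET group came from such 2-cell embryos that had been slow-frozen, thawed and then transferred. The parents of all groups were B6D2F1/J hybrids of C57BL/6J and DBA/2J. The IVF and FET embryos, but not the NC embryos, were carried by ICR females, so conception in vitro and the recipient strain cannot be told apart in the contrasts with NC. Offspring of such hybrids each carry their own mix of alleles from both parental strains, and no genotype at these genes was used here. The labels number the mice 1, 5 and 6 in NC and 2, 3 and 4 in IVF and in FET, and do not say which mice shared a litter.

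Serpins trap proteases: an exposed stretch of the protein, the reactive centre loop, is offered as a bait, and the protease that cuts it is held in a dead complex. Serpina1 encodes alpha-1 antitrypsin, the main blood inhibitor of neutrophil elastase, which is a single gene in humans and a set of near-identical neighbouring copies in mice. The Serpina3 genes are the mouse relatives of alpha-1 antichymotrypsin and have also multiplied. Serpina6 encodes corticosteroid-binding globulin, which kept the serpin fold but carries glucocorticoids in blood instead of inhibiting a protease. Hepatocytes are the main source of all of them, and inflammation is known to raise several.

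The Serpina1 copies are known to differ in the bait, so the coding bases of their loops are shown first. Over the whole coding sequence (1242 bases each) the 10 pairs of Serpina1a to Serpina1e shared between 96.3% and 98.5% of bases. At least 1 copy differed from the others at 18 of the 84 places of the loop stretch, or 21.4%, and at 68 of the 1158 other coding places, or 5.9%. The stretches below are 84 coding bases of each copy from GRCm38 with the GENCODE vM21 annotation, read 5′ to 3′ along the coding strand, and capitals mark a base that fewer than 3 of the 5 copies carry at that place. At 2 places no base is carried by 3 copies, and there all 5 copies have a capital.
Serpina1a (chr12:103853747-103853830, minus strand): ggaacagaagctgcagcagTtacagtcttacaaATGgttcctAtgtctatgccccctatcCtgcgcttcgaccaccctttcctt
Serpina1b (chr12:103728314-103728397, minus strand): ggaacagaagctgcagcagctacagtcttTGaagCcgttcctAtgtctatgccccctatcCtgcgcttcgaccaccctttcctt
Serpina1c (chr12:103895084-103895167, minus strand): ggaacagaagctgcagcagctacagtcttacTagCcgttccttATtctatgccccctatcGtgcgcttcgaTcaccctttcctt
Serpina1d (chr12:103763752-103763835, minus strand): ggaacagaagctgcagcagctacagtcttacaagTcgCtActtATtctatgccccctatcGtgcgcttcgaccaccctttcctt
Serpina1e (chr12:103947090-103947173, minus strand): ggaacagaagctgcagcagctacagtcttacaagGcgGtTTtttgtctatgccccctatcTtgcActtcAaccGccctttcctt
Serpina1e carried the most such bases, 8, and Serpina1b the fewest, 5. Serpina1a, Serpina1c and Serpina1d had 6 each.

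The same region is shown for the 3 Serpina3 members because it differs between them in both sequence and length. Their coding sequences (1257 bases each) shared 82.6% to 90.9% of bases, and 58.7% to 61.0% with the Serpina1 copies. Capitals here mark the stretch between the first 24 and the last 18 bases shown.
Serpina3k (chr12:104345269-104345355, plus strand): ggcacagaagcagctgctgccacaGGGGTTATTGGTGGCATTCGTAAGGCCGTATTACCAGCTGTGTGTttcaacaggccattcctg
Serpina3m (chr12:104393769-104393861, plus strand): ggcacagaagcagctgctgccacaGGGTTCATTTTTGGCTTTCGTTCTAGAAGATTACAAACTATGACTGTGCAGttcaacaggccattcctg
Serpina3n (chr12:104413448-104413540, plus strand): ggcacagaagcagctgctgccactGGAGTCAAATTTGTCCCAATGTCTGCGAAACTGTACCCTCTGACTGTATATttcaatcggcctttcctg
The shown stretch held 87 bases in Serpina3k and 93 in Serpina3m and Serpina3n, of which 45, 51 and 51 are in capitals. Serpina6, with 1194 coding bases, shared 55.9% to 58.8% of bases with the other 8 members.

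The start regions of the Serpina1 copies also held shared sequence. RefSeq promoter windows (GRCm38.p6, 250 bases before to 50 after the start) were given for 6 of the members, all Serpina1 copies and Serpina3n. A run of 59 bases was found without a mismatch in all 5 Serpina1 windows, and it is printed because all copies hold it, Serpina1e included, whose share of the family varied most between mice.
Serpina1a (chr12:103863621-103863679, minus strand): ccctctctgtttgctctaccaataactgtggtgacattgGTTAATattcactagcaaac
Capitals mark GTTAAT, part of the sequence that the hepatocyte factor HNF1 binds, which was searched on both strands together with TTGCNNAA for C/EBP and TTCNNNGAA for STAT factors. GTTAAT was in the windows of all 5 copies and in 7.1% of the 32851 promoter windows of the table. TTGCNNAA was in the windows of Serpina1a, Serpina1b, Serpina1d and Serpina1e and in 10.8% of all windows, and TTCNNNGAA was in none of the 6 windows and in 8.3% of all. None of the 3 motifs was found in the Serpina3n window. The matches describe the letters of the reference genome only.

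The members lie within 1 cluster of 28 Serpina genes on chromosome 12, which spans 800 kb from 103614786 to 104414329 (GRCm38). Serpina6 (103646630 to 103657212) and the Serpina1 copies are on the minus strand, and Serpina3k, Serpina3m and Serpina3n (104406729 to 104414329) are on the plus strand. The annotated span of Serpina1b (103728156 to 103830373) contains that of Serpina1d (103763594 to 103773592), and Serpina3m (104338486 to 104394257) is annotated from the same base as Serpina3k (104338486 to 104346144), so reads in these spans can belong to either gene. Of the 20 Serpina genes outside the member list, which include Serpina7 on the X chromosome, 8 were listed at 0 in all 9 mice, 6 had values above 0 with a mean under 1 FPKM, and 6 had a mean of at least 1 FPKM. FPKM divides the fragments of a gene by its length and by the size of the library, so levels can be compared between genes. The genes at 0 were Serpina16, Serpina1f, Serpina3b, Serpina3c, Serpina3d-ps, Serpina3e-ps, Serpina3j and Serpina3l-ps, and of the Serpina3 genes outside the list Serpina3g had the highest mean, 1.09 FPKM.

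**Figure D1:**
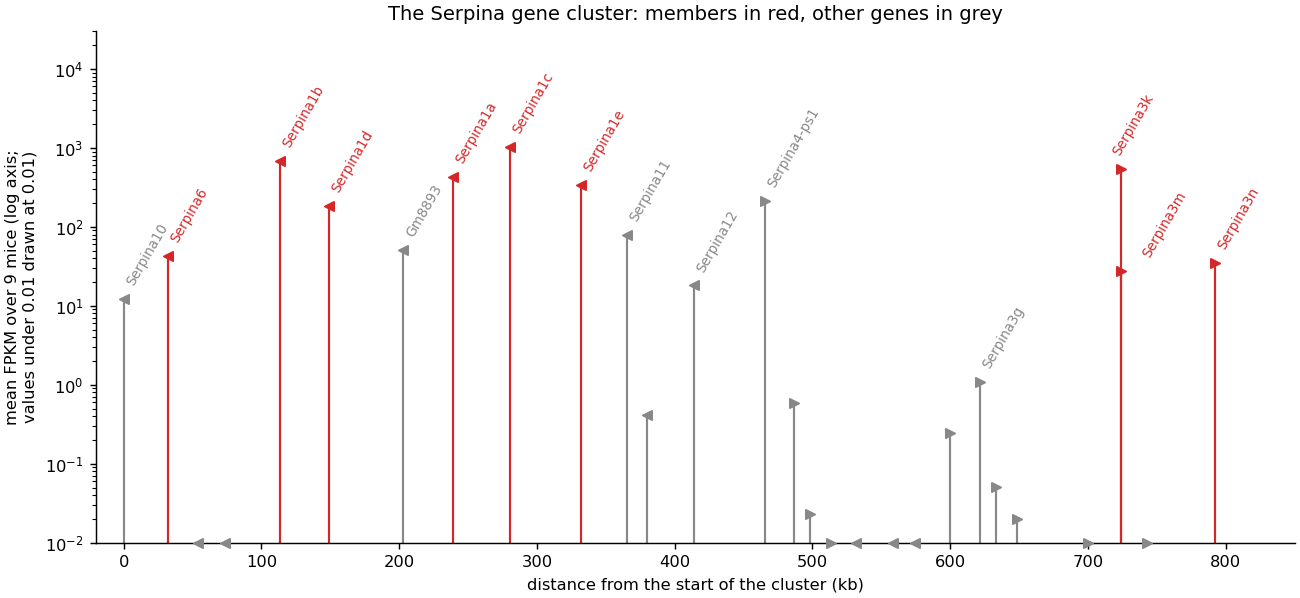
Mean FPKM over the 9 mice (vertical log axis) of each Serpina gene and the Serpina1 pseudogene Gm8893 on chromosome 12 by distance in kb from the start of the cluster; arrowheads give the strand, members are red and other genes grey, and genes listed at 0 in all mice sit at the bottom. The members in red stand at 27.5 FPKM or more, and of the other genes Serpina4-ps1 has the highest mean at 215 FPKM.

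The libraries differed in make-up and depth, and this touches every value below. Nuclear protein-coding genes took 10.1%, 15.5% and 18.1% of the summed FPKM in NC mice 1, 5 and 6, 4.36%, 11.8% and 29.3% in IVF mice 2, 3 and 4, and 9.33%, 13.7% and 4.41% in FET mice 2, 3 and 4. Since 1 fragment adds a fixed amount to a gene's FPKM, low values fall on steps, and the step size gave the mapped fragments, which lay between 6610000 and 13330000 in NC, 3900000 and 8420000 in IVF and 2020000 and 2940000 in FET, so every FET library was smaller than every other library. Low values sat on a step (tolerance 2%) in 37.9% to 46.7% of cases, where 18% would do so at random, and the estimate could be off by a whole-number factor. In bulk liver RNA, fewer hepatocytes and less RNA per hepatocyte cannot be told apart. Because of the unequal protein-coding share, the fitted differences, the overlap of groups and the medians of lists of serpin-related genes are also given with the FPKM of each mouse rescaled so that its nuclear protein-coding genes sum to the mean total over the 9 mice.

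The Serpina1 copies and Serpina3k were among the most abundant messages of these livers. Among 21886 nuclear protein-coding genes, Serpina1c ranked between 8 and 19 in the 9 mice, Serpina1b between 12 and 33, Serpina1a between 18 and 43, and Serpina3k between 16 and 48. Serpina1d ranked between 29 and 179. Serpina6, Serpina3n and Serpina3m were lower, between ranks 205 and 501, 205 and 920, and 208 and 1103. Serpina1e stood apart from the others, since its rank went from 7 in FET mouse 4 to 5810 in NC mouse 6. Together the 9 members took 2.76%, 2.81% and 1.88% of the protein-coding FPKM in NC mice 1, 5 and 6, 3.42%, 3.54% and 2.52% in IVF mice 2, 3 and 4, and 2.40%, 3.74% and 5.56% in FET mice 2, 3 and 4. The 3 groups overlapped in this share, and without Serpina1e the highest value fell to 3.51%, in IVF mouse 3.

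**Figure D2:**
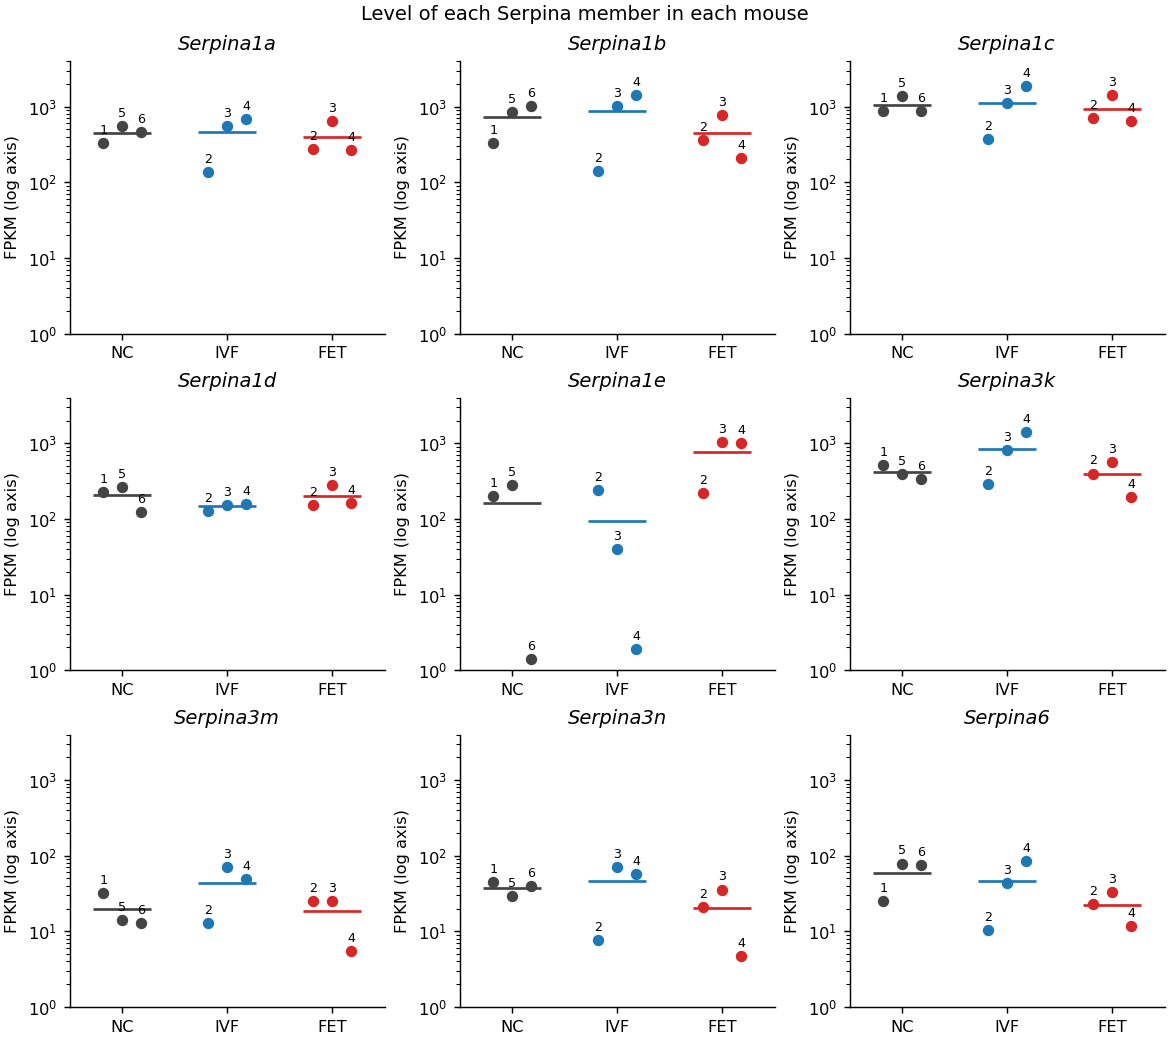
FPKM of each member (log axis) in each of the 9 mice; points are mice labelled with their number, and the horizontal lines are group means of 3 mice. The groups overlap in all 9 panels, IVF mouse 2 or FET mouse 4 is lowest in most of them, and Serpina1e alone spreads from 1.42 to 1048 FPKM.

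Serpina1c was the most abundant copy in 7 of 9 mice, the exceptions being NC mouse 6, where Serpina1b led, and FET mouse 4, where Serpina1e did. Its level was 885, 1400 and 883 FPKM in NC mice 1, 5 and 6, 369, 1108 and 1897 FPKM in IVF mice 2, 3 and 4, and 710, 1421 and 642 FPKM in FET mice 2, 3 and 4. The group means were 1056 ± 298, 1125 ± 764 and 924 ± 431 FPKM (SD, n = 3 each), and the highest and lowest mouse of the whole study were both IVF mice. Serpina1b was measured at 332, 856 and 1008 FPKM in NC, 139, 1017 and 1443 FPKM in IVF, and 363, 775 and 211 FPKM in FET, in the same order of mice. IVF mouse 2 was again the lowest and IVF mouse 4 the highest.

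Serpina1a stood at 328, 552 and 462 FPKM in NC, 138, 554 and 686 FPKM in IVF, and 278, 639 and 268 FPKM in FET. The 3 FET values thus fell within the IVF range. Serpina1d was the steadiest copy on the deposited scale, with 229, 266 and 123 FPKM in NC, 126, 155 and 159 FPKM in IVF, and 155, 282 and 163 FPKM in FET. Its highest mouse was 2.30 times its lowest, against 4.95 times for Serpina1a, 5.14 times for Serpina1c and 10.4 times for Serpina1b. After rescaling to protein-coding genes the order turned, with 5.20 times for Serpina1d, 2.01 times for Serpina1a, 2.51 times for Serpina1c and 2.63 times for Serpina1b.

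Serpina1e varied between mice far more than any other member. It was measured at 204, 284 and 1.42 FPKM in NC mice 1, 5 and 6, at 241, 39.6 and 1.89 FPKM in IVF mice 2, 3 and 4, and at 219, 1048 and 1025 FPKM in FET mice 2, 3 and 4. The highest mouse was thus 739 times the lowest, and 2750 times after rescaling. NC mouse 6 and IVF mouse 4 were close to 0, FET mice 3 and 4 were the highest of all, and the groups overlapped because FET mouse 2 lay among the NC values. By the depth estimate, the level in NC mouse 6 rested on about 25 fragments and that in IVF mouse 4 on about 10, with counting errors of 20.2% and 32.3%, while NC mouse 5 had about 4399 and FET mouse 4 about 3901. NC mouse 6 and IVF mouse 4 were also the libraries with the highest protein-coding shares, 18.1% and 29.3%, and the part of that in the result was not tested.

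The make-up of the family showed the same contrast without depending on the scale of the library. Serpina1e made up 10.3%, 8.47% and 0.0573% of the summed Serpina1a to Serpina1e FPKM in NC mice 1, 5 and 6, 23.7%, 1.38% and 0.0452% in IVF mice 2, 3 and 4, and 12.7%, 25.2% and 44.4% in FET mice 2, 3 and 4. The mean was 27.4% ± 16.0 (SD, n = 3) in FET, 6.29% ± 5.47 in NC and 8.38% ± 13.3 in IVF. All 3 FET mice lay above all 3 NC mice, with a difference of 21.1 percentage points and an exact two-sided permutation p of 0.1, which is the smallest that 3 mice against 3 can give (0.3 with Benjamini-Hochberg adjustment over 9 tests). Without FET mouse 4 the difference was 12.6 percentage points, and 10.5 against IVF. For FET against IVF the exact permutation p was 0.2 with a difference of 19.0 percentage points, and for IVF against NC it was 0.9. The 9 permutation tests, of this share and of the level of Serpina1e on both scales in 3 comparisons, were chosen after the values had been seen, and none can pass 0.05 in this design.

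The other copies kept steadier shares of the family. Serpina1a made up 11.6% to 19.3% and Serpina1c 27.8% to 45.3% of the sum over the 9 mice, and Serpina1d 3.80% to 12.5%. Serpina1b ranged from 9.14% in FET mouse 4 to 40.7% in NC mouse 6, and its 3 highest shares, 40.7%, 35.4% and 34.5%, were in the 3 mice with the least Serpina1e. Shares of a sum are tied to each other, so a rise in 1 copy lowers the others. Summed over the 5 copies, the family took 1.58% to 2.43% of protein-coding FPKM in NC, 1.82% to 2.63% in IVF and 1.89% to 5.09% in FET, and without Serpina1e 1.58% to 2.22%, 1.82% to 2.59% and 1.65% to 2.83%.

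**Figure D3:**
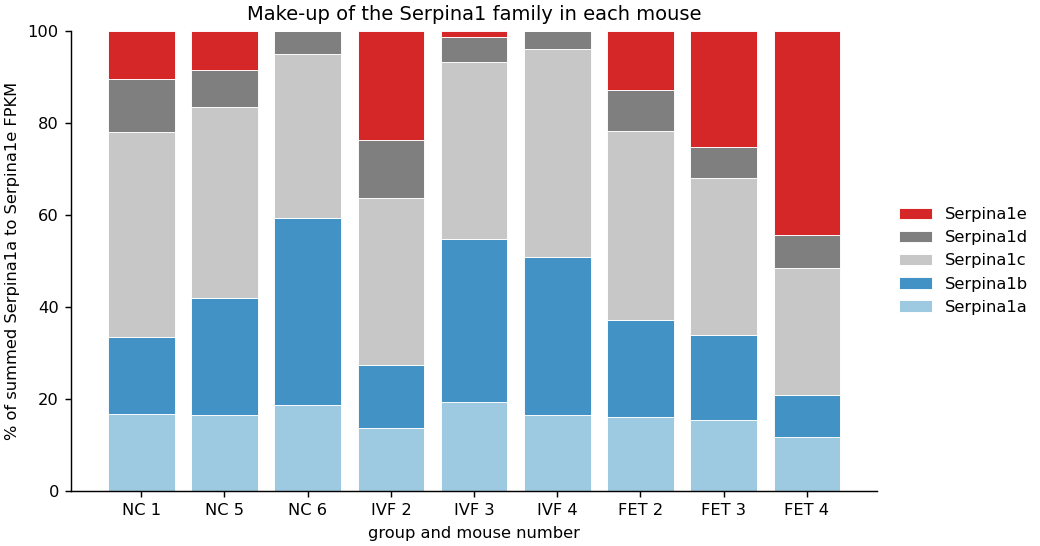
Share of each copy in the summed Serpina1a to Serpina1e FPKM (vertical axis, %) in each mouse, as stacked bars. Serpina1e (red) is too thin to see in NC mouse 6 and IVF mouse 4, at 0.0573% and 0.0452%, and reaches 44.4% in FET mouse 4.

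How well reads can be told apart differed between the copies, and the counting method used upstream for reads that fit several copies is not given in the sources used here. Unique stretches were those of the reference transcript found in no transcript of any other annotated gene. At 100 bases they made up 81.8% of all stretches for Serpina1e, 73.6% for Serpina1b, 70.7% for Serpina1d, 41.5% for Serpina1c and 39.0% for Serpina1a. At 50 bases the shares were 62.1%, 52.9%, 49.1%, 25.8% and 19.1% in the same order of copies. Levels of Serpina1a and Serpina1c are thus the least certain, and part of their reads could have been credited to another copy. Gm8893, an unprocessed pseudogene inside the Serpina1b span that shares stretches with all 5 copies, was listed at 44.6 ± 10.3 FPKM in NC, 57.5 ± 44.3 FPKM in IVF and 49.5 ± 23.9 FPKM in FET. For Serpina3k, Serpina3m and Serpina3n the unique shares at 100 bases were 95.1%, 93.9% and 99.8%, and for Serpina6 100%. The parental strain DBA/2J was not compared with the reference, which is C57BL/6J.

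Serpina3k, an inhibitor that binds tissue kallikrein, made up 85.2% to 95.0% of the summed Serpina3k, Serpina3m and Serpina3n FPKM in the 9 mice. It was measured at 510, 397 and 339 FPKM in NC mice 1, 5 and 6, at 294, 814 and 1418 FPKM in IVF mice 2, 3 and 4, and at 399, 572 and 193 FPKM in FET mice 2, 3 and 4. The mean was 842 ± 563 FPKM (SD, n = 3) in IVF, 415 ± 86.9 in NC and 388 ± 190 in FET, but IVF mouse 2 lay below every NC mouse. After rescaling, Serpina3k stood at 863, 855 and 707 in IVF mice 2, 3 and 4, at 502, 508 and 488 in FET mice 2, 3 and 4, and at 624, 330 and 249 in NC mice 1, 5 and 6. On that scale the IVF mice lay above all NC and all FET mice. The summed red cell markers separated the same mice on that scale, with 220, 245 and 185 in IVF against 1027, 261 and 381 in NC and 706, 516 and 438 in FET, and their part in the Serpina3k result was not tested.

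Serpina3n, an inducible inhibitor whose targets include granzyme B, was measured at 44.4, 29.5 and 39.9 FPKM in NC, 7.62, 71.1 and 58.0 FPKM in IVF, and 20.8, 35.7 and 4.66 FPKM in FET. The 2 lowest values, in FET mouse 4 and IVF mouse 2, came from the libraries with the lowest protein-coding shares, 4.41% and 4.36%. Serpina3m stood at 31.8, 14.2 and 12.9 FPKM in NC, 12.7, 70.5 and 49.2 FPKM in IVF, and 25.4, 25.5 and 5.56 FPKM in FET, with IVF mice 3 and 4 highest. In FET mouse 4 the levels of Serpina3m and Serpina3n rested on about 27 and 28 fragments, with counting errors of 19.2% and 18.8%.

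Serpina6, which sets how much corticosterone is bound in blood, was measured at 25.0, 78.8 and 75.6 FPKM in NC mice 1, 5 and 6, at 10.5, 42.9 and 84.0 FPKM in IVF mice 2, 3 and 4, and at 23.0, 33.0 and 11.6 FPKM in FET mice 2, 3 and 4. The FET mean of 22.5 ± 10.7 FPKM (SD, n = 3) was below those of NC, 59.8 ± 30.2, and IVF, 45.8 ± 36.8, but NC mouse 1 and IVF mouse 2 lay within or under the FET range. Rescaled to protein-coding genes, Serpina6 was 29.0, 29.3 and 29.3 in the FET mice, against 30.6, 65.5 and 55.5 in NC and 30.8, 45.1 and 41.9 in IVF. The FET mice were then the 3 lowest of all, with NC mouse 1 and IVF mouse 2 close above them.

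Compared with NC, no member passed the adjusted threshold in FET (limma, Benjamini-Hochberg adjusted p under 0.05), where 16 of 6755 genes did, or 0.237%. At an unadjusted p under 0.05, 1 of 9 members stood against 12.0% of all genes, and in 0 of 9 members did the groups not overlap, against 19.0% of all genes. That 1 member was Serpina1e, with a log2 fold change of 3.57 (SE 1.37) on the log2(FPKM + 1) scale, an unadjusted p of 0.0125 and an adjusted p of 0.279. This p rests on a variance that the model shares across genes of like level, and the exact permutation p for the same values was 0.2. Without NC mouse 6 the log2 fold change was 1.35 (SE 1.39), with a limma adjusted p of 1. Serpina6 had a log2 fold change of -1.32 (SE 1.03, adjusted p = 0.644) and Serpina3n of -1.21 (SE 1.02, adjusted p = 0.68). The value of Serpina6 was -0.26 with NC mice 5 and 6 left out, so against NC mouse 1 alone, and that of Serpina3n was -0.44 without FET mouse 4. The others lay between -0.76 for Serpina1b and -0.02 for Serpina1d. The fitted values of 8 of 9 members were negative, with a median of -0.25, beside a median of -0.46 over all genes, 74.3% of which were negative.

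In IVF against NC, no member passed the adjusted threshold either, where 4 genes did, or 0.0592%, and none had an unadjusted p under 0.05, against 4.07% of all genes. Groups did not overlap in 6.23% of all genes and in none of the members. Serpina3m had a log2 fold change of 0.94 (SE 0.98), Serpina1e of -0.77 (SE 1.37), Serpina3k of 0.77 (SE 1.04) and Serpina6 of -0.63 (SE 1.03), each with an adjusted p of 1. Their order depended on single mice. With 1 mouse left out in turn, Serpina3m ranged from 0.46 without IVF mouse 3 to 1.65 without IVF mouse 2. Serpina3k ranged from 0.26 without IVF mouse 4 to 1.39 without IVF mouse 2. Serpina1e (-2.99 to 0.93) and Serpina6 (-1.27 to 0.17) changed sign. The member median was -0.21, beside -0.25 over all genes.

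The FET and IVF groups share egg handling, fertilization in vitro and ICR recipients. They differ in freezing, storage, thawing and the culture after thawing, which cannot be told apart here. Between these 2 groups again no member passed the adjusted threshold, which 6 genes or 0.0888% passed. Serpina1e was the only member with an unadjusted p under 0.05, as 4.01% of all genes had, with a log2 fold change of 4.34 (SE 1.37), an unadjusted p of 0.00276 and an adjusted p of 0.585. Its exact permutation p was 0.2, and without IVF mouse 4 the log2 fold change was 2.64 (SE 1.56), with a limma adjusted p of 1. Serpina3m (-1.14, SE 0.98), Serpina3n (-1.0, SE 1.02) and Serpina3k (-0.98, SE 1.04) had values about as large as their standard errors, each with an adjusted p of 1. With 1 mouse left out in turn these ranged from -1.85 to -0.47, -1.98 to -0.23 and -1.60 to -0.47, the first of each pair without IVF mouse 2 and the second without FET mouse 4 for Serpina3m and Serpina3n and without IVF mouse 4 for Serpina3k. In no member did the groups not overlap, against 3.83% of all genes. The fitted values of 7 of 9 members were negative, with a median of -0.60, beside -0.20 over all genes, 65.4% of which were negative. The 3 comparisons share mice in pairs, so their values for a member are not independent.

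**Figure D4:**
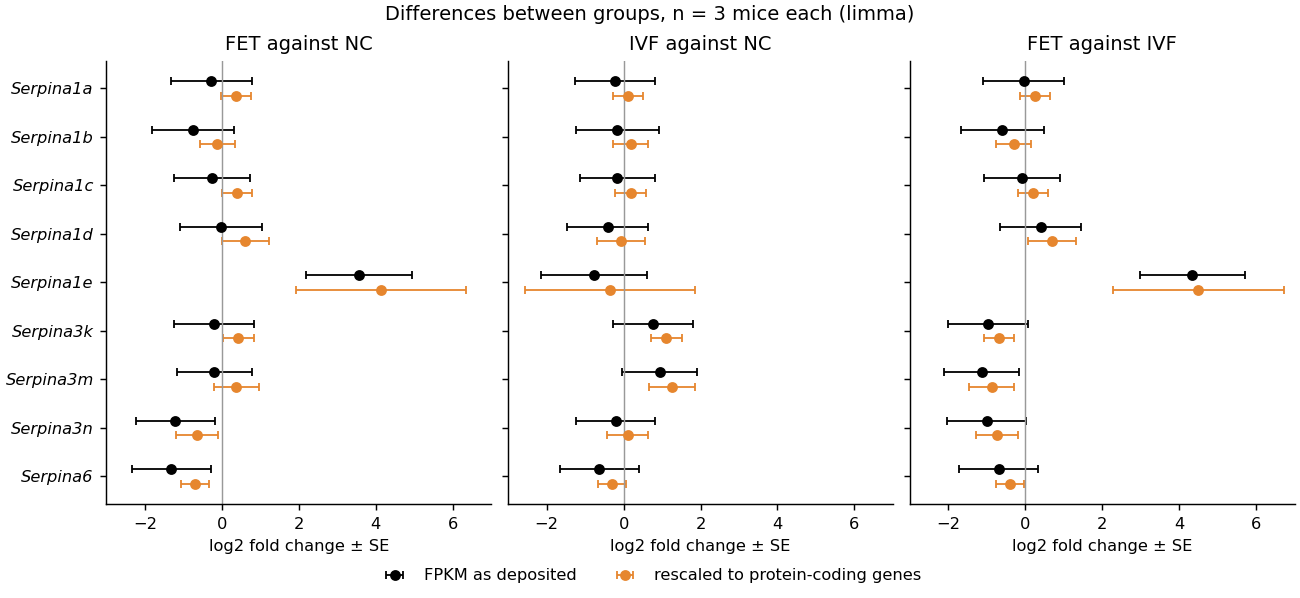
Log2 fold change with its standard error (horizontal axis) of each member in the 3 comparisons of 3 mice each, from FPKM as deposited (black) and rescaled to nuclear protein-coding genes (orange). Serpina1e lies at 3.57 and 4.34 in the comparisons with FET in black, and in FET against NC the points of 5 other members lie left of 0 in black and right of it in orange.

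The direction of most small differences depended on the scale of the libraries, and that of Serpina1e did not. The median log2 fold change of all genes in FET against NC was -0.46 as deposited, -0.11 after median-ratio scaling and -0.028 after rescaling to protein-coding genes. Alongside it, 3 of 9 members were negative on both of those scales in place of 8, and the member median went from -0.25 to 0.25 and 0.38. Serpina1a, Serpina1c, Serpina1d, Serpina3k and Serpina3m changed sign, while Serpina6 (-0.83 and -0.70), Serpina3n (-0.75 and -0.64), Serpina1b (-0.25 and -0.12) and Serpina1e (3.97 and 4.14) kept theirs. No member passed the adjusted threshold of limma on either scale, and Serpina1e no longer had an unadjusted p under 0.05, with 0.103 after median-ratio scaling and 0.0916 after rescaling in FET against NC, and 0.0831 and 0.0704 in FET against IVF. At an unadjusted p under 0.05 in FET against NC there was 1 member with median-ratio scaling, Serpina6 (limma, 0.0451, adjusted p = 0.285), against 1051 of 6236 genes, and 0 with rescaling, against 1118 of 6955. In IVF against NC, median-ratio scaling gave 2 such members, Serpina3k at 1.21 (limma, unadjusted p = 0.0127, adjusted p = 0.782) and Serpina3m at 1.34 (0.0345, adjusted p = 0.866), against 357 of 6236 genes. In FET against IVF it gave 1, Serpina3k at -0.92 (limma, unadjusted p = 0.0446, adjusted p = 0.526), against 575 genes.

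After rescaling to protein-coding genes, groups did not overlap for a few members. In FET against NC, 2 of 9 members did not overlap, Serpina1e higher and Serpina6 lower, against 21.0% of all genes. The margin for Serpina1e was small, with 275 in FET mouse 2 against 250 in NC mouse 1. In IVF against NC, Serpina3k was higher in all IVF mice, 1 of 9 members against 16.0% of all genes, with a log2 fold change of 1.11 (SE 0.40), an unadjusted p of 0.019 in limma and an adjusted p of 0.897. In FET against IVF, 2 of 9 members, Serpina3k and Serpina6, were lower in all FET mice, against 12.2% of all genes. The log2 fold changes there were -0.69 (SE 0.40) for Serpina3k and -0.40 (SE 0.36) for Serpina6.

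Across the 9 mice, most members followed the protein-coding share of the library. Pearson's r between log2(FPKM + 1) and the log2 of the summed protein-coding FPKM was 0.947 for Serpina1b, 0.944 for Serpina6, 0.895 for Serpina1c, 0.892 for Serpina1a, 0.852 for Serpina3n, 0.74 for Serpina3k and 0.56 for Serpina3m. It was 0.259 for Serpina1d and -0.634 for Serpina1e. These are descriptions over 9 mice whose values share the depth and make-up of each library. As a sum, the 8 members without Serpina1e went from 1098 FPKM in IVF mouse 2 to 5794 FPKM in IVF mouse 4, the mice with the lowest and the highest protein-coding share.

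**Figure D5:**
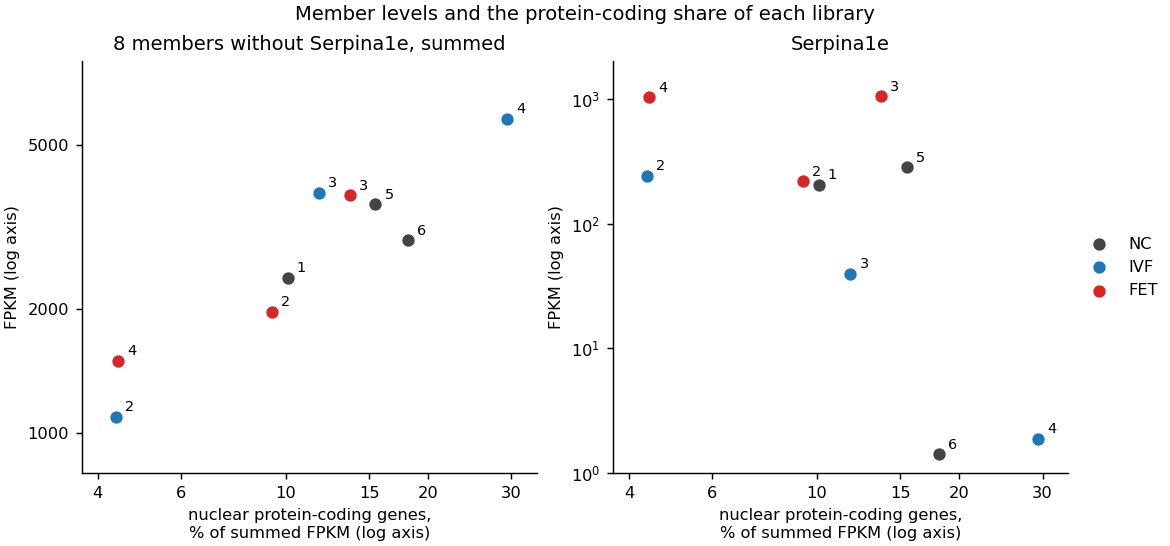
FPKM (vertical log axis) of the 8 members without Serpina1e, summed (left), and of Serpina1e (right) against the share of nuclear protein-coding genes in the summed FPKM of each library (horizontal log axis, %); points are mice, numbered and coloured by group. On the left the points go from 1098 FPKM at 4.36% to 5794 FPKM at 29.3%, and on the right the mice at 18.1% and 29.3% are the lowest.

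Levels of most members went together over the mice on the deposited scale, with mostly lower r for the pairs that hold Serpina1d or Serpina1e. Among the 21 pairs without Serpina1d and Serpina1e, r over the 9 mice ran from 0.427 to 0.967 with a median of 0.788, highest for Serpina1a with Serpina1c. The 7 pairs of Serpina1d with members other than Serpina1e ran from 0.111 to 0.535 with a median of 0.201. The 8 pairs with Serpina1e were all negative but that with Serpina1d, and ran from -0.675, with Serpina6, to 0.536, with Serpina1d. Their median was -0.4465. After rescaling, that median was 0.1565, beside 0.144 for the 7 Serpina1d pairs and 0.167 for the 21 pairs. The pairs of Serpina1e with Serpina1a (0.622), Serpina1c (0.768), Serpina3k (0.195) and Serpina3m (0.118) were then positive. Those with Serpina1b (-0.5), Serpina3n (-0.345) and Serpina6 (-0.595) stayed negative. The 3 highest pairs on that scale were within a family, with 0.963 for Serpina1d with Serpina1e, 0.872 for Serpina3k with Serpina3m and 0.865 for Serpina1a with Serpina1c. Serpina1d, like Serpina1e, was lowest on that scale in NC mouse 6, at 89.9, and IVF mouse 4, at 79.3, and highest in FET mouse 4, at 413. The Serpina1d transcript shares stretches of sequence with Serpina1e, and the spans of Serpina3k and Serpina3m overlap, as described above.

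The genes outside the Serpina clade whose levels were most like each member over the 9 mice, on log2(FPKM + 1), were named by rank of Pearson's r, for 8 of the 9 members. Serpina1b was nearest to Cyp2d9, a cytochrome P450, with r = 0.991, and Serpinf1, another secreted serpin, was also among its 3 nearest with r = 0.988. Serpina1a was nearest to Vtn, the plasma protein vitronectin, with r = 0.986. For Serpina3n it was Emilin1 with r = 0.978, for Serpina3k Nap1l1 with r = 0.972, for Serpina1c Dctn5 with r = 0.97 and for Serpina3m Wdr43 with r = 0.948. All of these were low genes. Emilin1 spanned 0 to 2.92 FPKM, Nap1l1 0.88 to 3.27, Dctn5 1.26 to 7.37 and Wdr43 0.357 to 4.33. Each r is the highest over the tested genes on the deposited scale, where most members followed the protein-coding share. The part of that share in these r was not tested. Serpina1d and Serpina1e had no gene as near. The nearest was Repin1 with r = 0.859 for Serpina1d, and for Serpina1e it was the pseudogene Mup-ps19 with r = 0.876, then Mup11, which encodes a major urinary protein, with r = 0.709. Mup11 itself spanned 2.25 to 483 FPKM in these mice.

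Of the Serpina genes outside the member list, the 6 with a mean of at least 1 FPKM were tested and none passed the adjusted threshold in any comparison. Serpina10, which inhibits coagulation factor Xa together with protein Z, had the lowest fold change in FET against NC, with 14.6 ± 3.98 FPKM (SD, n = 3) in NC and 6.21 ± 5.54 FPKM in FET (log2 fold change -1.45, SE 0.88, adjusted p = 0.522). Serpina3g stood at 2.48 ± 2.80 FPKM in NC and 0.328 ± 0.16 FPKM in FET (log2 fold change -1.10, SE 0.60, adjusted p = 0.465), and the NC mean rested on mouse 1 with 5.68 FPKM. Serpina12, the adipokine vaspin, and Serpina11 had positive values of 0.70 and 0.65, Serpina4-ps1 of 0.24, and Serpina7, which encodes thyroxine-binding globulin and lies on the X chromosome, of -0.27.

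The wider system around these inhibitors was read from lists of genes, and in none of them did a gene pass the adjusted threshold in any of the 3 comparisons. Counts at an unadjusted p under 0.05 stand beside 12.0% of all genes in FET against NC, 4.07% in IVF against NC and 4.01% in FET against IVF, and medians beside -0.46, -0.25 and -0.20 over all genes. Of 6 tested plasma serpins with symbols other than Serpina, 0 had an unadjusted p under 0.05 in any comparison. Their median log2 fold change in FET against NC was -0.69 (-0.072 after rescaling to protein-coding genes). Agt, the angiotensin precursor, was the most abundant of them with 218 ± 31.4 FPKM in NC and 292 ± 159 in FET (log2 fold change 0.27), and Serpinf2 and Serpinc1 stood at -0.59 and -0.43. Among 13 tested plasma inhibitors that are not serpins, also with 0 at an unadjusted p under 0.05, the median in FET against NC was -0.49 as deposited and 0.14 after rescaling, so its sign depended on the scale. Ambp, the precursor of bikunin, had 537 ± 189 FPKM in NC and 415 ± 279 in FET (log2 fold change -0.51). Fetub, fetuin-B, had 233 ± 25.5 and 391 ± 253 FPKM (0.40), and Ahsg, fetuin-A, 221, 88.5 and 87.3 FPKM in the NC mice and 213 ± 91.4 FPKM in FET (0.72).

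Of 13 tested proteases that serpins hold in check, 1 (12.0% of all genes) had an unadjusted p under 0.05 in FET against NC and 1 (4.07% of all genes) in IVF against NC, both lower, with medians of -0.90 and -0.45 as deposited and -0.28 and -0.43 after rescaling. Plg, plasminogen, was at 101 ± 26.8 FPKM in NC and 49.8 ± 22.9 in FET (log2 fold change -1.06, adjusted p = 0.735). F10, coagulation factor X, was at 76.5 ± 2.47 and 157 ± 92.9 FPKM (0.78, adjusted p = 0.823), and Proc, protein C, at 128 ± 33.2 and 111 ± 60.5 FPKM (-0.33). The protease that alpha-1 antitrypsin is best known for, neutrophil elastase (Elane), was listed at 0 in 8 of 9 mice and at 0.0751 FPKM in NC mouse 5. Cathepsin G (Ctsg) was listed at 0 in all.

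Among 18 tested regulators of serpin genes, 3 were lower in FET than in NC at an unadjusted p under 0.05, as 685 of 6755 genes were. The median was -0.74 (-0.26 after rescaling) beside -0.46 over all genes. In FET against IVF, 2 regulators were lower at that threshold, as 199 of 6755 genes were, with a median of -0.39 (-0.13 after rescaling). The most abundant regulator, Nr1h4, the bile acid receptor FXR, had 38.9 ± 29.3 FPKM in NC and 35.4 ± 15.2 in FET (FET against NC 0.32, adjusted p = 0.931). NC mice 1, 5 and 6 were at 5.15, 53.7 and 58.0 FPKM. The low value of mouse 1 weighs more on the log scale, so the fold change was positive although the FET mean was lower. Hnf4a, a factor that keeps hepatocytes differentiated, had 27.9 ± 7.88 FPKM in NC, 25.0 ± 15.8 in IVF and 16.4 ± 6.73 in FET (FET against NC -0.77, adjusted p = 0.789). Cebpb, which carries inflammatory signals to acute phase genes, stood at 20.4 ± 4.53, 16.5 ± 16.7 and 11.2 ± 5.19 FPKM. Of 15 genes that fold and export serpins, 2 were lower in FET than in NC at an unadjusted p under 0.05, a share near that of all genes, with a median of -0.62 (-0.18 after rescaling). Hsp90b1, a chaperone of the endoplasmic reticulum, was at 48.1 ± 21.9 FPKM in NC and 18.6 ± 11.9 in FET (-1.47, adjusted p = 0.576), and Calr and Sar1b stood at -0.39 and -0.95. The 4 genes for clearance and uptake were all negative in FET against NC, as 74.3% of all genes were, with a median of -1.34 (-0.82 after rescaling). Of the 4, 1 had an unadjusted p under 0.05, beside 12.0% of all genes, and it was none of those named next. Lrp1, a receptor that takes up serpin complexes, had 13.5 ± 4.79 FPKM in NC and 3.90 ± 1.04 in FET (-1.52, limma unadjusted p = 0.0553, adjusted p = 0.43). The asialoglycoprotein receptor genes Asgr1 and Asgr2 stood at -1.35 and -0.63.

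Of 18 tested acute phase genes, 3 were lower in FET than in NC at an unadjusted p under 0.05, as 685 of 6755 genes were. The median was -0.67 as deposited, beside -0.46 over all genes, and -0.055 after rescaling, beside -0.028. Hp, haptoglobin, had 878 ± 57.6 FPKM in NC, 909 ± 696 in IVF and 746 ± 649 in FET, and Hpx, hemopexin, 708 ± 128, 915 ± 943 and 546 ± 356 FPKM. Orm1, an orosomucoid, ran from 581 to 812 FPKM in NC, 131 to 1715 in IVF and 215 to 1234 in FET. The log2 fold changes of Hp, Hpx and Orm1 in FET against NC were -0.58 (SE 1.03), -0.59 (SE 1.06) and -0.32 (SE 1.07). In IVF against NC they were -0.37, -0.32 and -0.33 with the same standard errors. Each was smaller than its standard error. Of 9 tested genes that handle corticosteroids, the ligands of the Serpina6 protein, none had an unadjusted p under 0.05. Tat, tyrosine aminotransferase, a classic glucocorticoid target, had the largest difference of those named, with 169 ± 73.1 FPKM in NC, 48.4 ± 38.1 in IVF and 36.7 ± 3.14 in FET (FET against NC -2.08, adjusted p = 0.426). Hsd11b1, the enzyme that renews corticosterone inside liver cells, was at 54.4 ± 49.2 and 59.5 ± 29.0 FPKM in NC and FET, and Akr1d1, a steroid reductase, at 29.8 ± 10.9 and 45.2 ± 44.2 FPKM.

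The label of the tissue was checked against marker genes. All 6 hepatocyte markers were measured, with a summed level of 9506 to 18566 FPKM in NC, 3080 to 29004 in IVF and 3936 to 14108 in FET, and Alb (albumin) alone had 8967 ± 2365 FPKM in NC and 4062 ± 2404 in FET. The 6 Kupffer cell markers summed to 11.7 to 29.1 FPKM in NC, 4.5 to 31.4 in IVF and 11.4 to 76.6 in FET, with FET mouse 2 the highest. The 5 endothelial markers summed to 2.32 to 10.8 FPKM, the 5 stellate cell markers to 3.93 to 18.3, the 4 cholangiocyte markers to 0.331 to 7.02 and the 5 lymphocyte markers to 0 to 1.33 over the 9 mice. The 6 neutrophil markers, of which Ly6g and Mpo were at 0 in all mice, were near the floor. They summed to 2.74, 0.317 and 2.13 FPKM in NC mice 1, 5 and 6. In IVF mice 2, 3 and 4 the sums were 0.231, 0 and 12.1 FPKM, and all FET mice were at 0. The FET libraries were also the smallest, and the part of depth in these zeros was not tested. The 4 red cell markers summed to 314 to 839 FPKM in NC, 75 to 371 in IVF and 173 to 581 in FET. The hepatocyte sum was lowest in IVF mouse 2 and FET mouse 4, as were most members, and its part in their levels was not tested. Its highest mouse was 9.42 times its lowest as deposited and 1.64 times after rescaling, where it lay between 9030 and 14793. Gene by gene, 5 of the 6 hepatocyte markers were negative in FET against NC on both scales, with a median log2 fold change of -1.46 as deposited, beside -0.46 over all genes, and -0.82 after rescaling, beside -0.028, and none had an unadjusted p under 0.05. In FET against IVF 1 of the 6 did, lower in FET. After rescaling the Kupffer cell sum was 96.2 in FET mouse 2 and 13.2 to 28.8 in the others.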

How the data were processed

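Liver RNA of 9 mice (3 NC, 3 IVF, 3 FET) was analysed. The authors deposited FPKM values for 55335 genes by Ensembl identifier, without counts. Per the labels' processing notes, FastQC 0.11.5, STAR 2.5.3a, StringTie 1.3.1c and DESeq2 1.16.1 were used, with no roles given. The genome build, the strandedness and the treatment of reads that fit several genes are not given in the sources used here, so near-identical or overlapping genes may exchange reads. Symbols and positions came from GENCODE vM21 (GRCm38), which matched 55154 genes.

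The values were put on the log2(FPKM + 1) scale, which understates changes of low genes, and the 6755 genes with a mean of at least 1 FPKM were fitted with limma (3.58.1, R 4.3.3). All 3 groups entered a single fit with empirical Bayes moderation (trend set), and tests were two-sided with Benjamini-Hochberg adjustment over all genes at 0.05. Single values of Serpina1e were compared by exact permutation over mice with SciPy 1.17.1. The procedures were tested on simulated data. Depth was estimated from steps of up to 8 fragments. Fragment numbers behind a level use the reference transcript length and cover counting error only.

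The members and lists were chosen with earlier results of these data known. Named genes were the members, other Serpina genes with a mean of at least 1 FPKM, genes among the 3 most abundant of each list, and the 3 genes most like each member. A single gene picked this way is not reported here. Genes listed at 0 in all mice and Gm8893 fell outside this rule and were chosen after their values were seen. Alternatives were a pseudocount of 0.1, no filter, median-ratio scaling (5768 genes above 0 in every mouse), rescaling to nuclear protein-coding genes, fitting only 2 groups, leaving out NC mice 5 and 6, the mouse number as a block, and leaving out each mouse.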

Additional observations from a re-analysis of the deposited data

How the results depend on the processing

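No member passed the adjusted threshold of limma under any alternative, and the lowest adjusted p was 0.101, for Serpina1e in FET against NC without FET mouse 2 (unadjusted p = 0.00159). The lowest unadjusted p was 0.000204, for Serpina1e in FET against IVF without FET mouse 2 (adjusted p = 0.103). Of the 27 member differences, 11 kept their sign under every alternative and 16 turned at least once, and the cause was not tested. In FET against NC, median-ratio scaling gave Serpina1a 0.24, Serpina1c 0.26, Serpina1d 0.48, Serpina3k 0.29 and Serpina3m 0.25, rescaling to nuclear protein-coding genes gave 0.37, 0.39, 0.62, 0.43 and 0.38, and leaving out NC mice 5 and 6, whose label numbers lie apart from the others, gave Serpina1a 0.14 and Serpina1b 0.23. In IVF against NC, median-ratio scaling gave Serpina1a 0.22, Serpina1b 0.28, Serpina1c 0.28, Serpina1d 0.03 and Serpina3n 0.20, rescaling gave Serpina1a 0.12, Serpina1b 0.19, Serpina1c 0.18 and Serpina3n 0.10, and leaving out NC mice 5 and 6 gave Serpina1a 0.19, Serpina1b 0.83, Serpina1c 0.06 and Serpina6 0.43. In FET against IVF, median-ratio scaling gave Serpina1a 0.02, and rescaling gave Serpina1a 0.25 and Serpina1c 0.21.

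With 1 mouse left out in turn, the log2 fold change of Serpina1e ranged from 1.35 to 4.79 in FET against NC, from 2.64 to 5.83 in FET against IVF and from -2.99 to 0.93 in IVF against NC. Other differences that turned ranged, in FET against NC, from -0.36 to 0.20 for Serpina1d, -0.56 to 0.22 for Serpina3k and -0.54 to 0.47 for Serpina3m. In IVF against NC they ranged from -0.66 to 0.49 for Serpina1a, -0.80 to 0.88 for Serpina1b, -0.69 to 0.49 for Serpina1c, -0.77 to 0.76 for Serpina3n and -1.27 to 0.17 for Serpina6. In FET against IVF they ranged from -0.76 to 0.39 for Serpina1a, -1.63 to 0.05 for Serpina1b and -0.74 to 0.43 for Serpina1c. Without IVF mouse 2, 5 of 9 members had an unadjusted p under 0.05 in FET against IVF, as 845 of 6755 genes did, 807 of them lower. Among differences that did not turn, in FET against NC Serpina3n ranged from -1.79 to -0.44, Serpina6 from -1.85 to -0.92 and Serpina1b from -1.25 to -0.31, and in FET against IVF Serpina6 ranged from -1.49 to -0.05.

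The number of genes changed in FET against NC was 0 without the filter on low values (2618 at an unadjusted p under 0.05), 0 with only the 2 groups fitted (1031), 6 without NC mice 5 and 6 (NC is then mouse 1 alone, assumed to vary like the other groups), and 1 to 83 with 1 mouse left out, with 1 without FET mouse 3, 57 without FET mouse 2 and 83 without NC mouse 1. In IVF against NC it was 0 with a pseudocount of 0.1 (179 at an unadjusted p under 0.05), 0 without the filter (1580), 0 with median-ratio scaling (357), 0 with rescaling (356), 0 with 2 groups (318), 2 without NC mice 5 and 6 (again with a single NC mouse), and 0 to 24 with 1 mouse left out, with 24 without NC mouse 1, 1 without IVF mouse 2 and 0 without IVF mouse 3 or 4. In FET against IVF it was 0 without the filter (829), 0 with 2 groups (207) and 0 to 10 with 1 mouse left out, with 10 without IVF mouse 2, 0 without IVF mouse 4, 2 without FET mouse 3 and 3 without FET mouse 4. The labels do not say whether the mouse numbers shared by IVF and FET pair the mice. Correlations of same-numbered mice were -0.131, 0.0215 and -0.255, and those of other pairs ran from -0.143 to 0.292. With 3 mice a group these values can neither show nor exclude a pairing. The number as a block gave 2 genes changed in FET against IVF, none of them a member.

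With 3 mice a group, differences of the size of the standard errors printed above were not detectable. Depth limits the values of Serpina1e in NC mouse 6 and IVF mouse 4 and of Serpina3m and Serpina3n in FET mouse 4, with the counting errors given there. In an alternative chosen after seeing the data, the difference in the Serpina1e share with 1 mouse left out in turn ranged from 12.6 to 28.5 percentage points in FET against NC, 10.5 to 26.7 in FET against IVF and -5.57 to 6.27 in IVF against NC.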
